A study of Mus musculus with 30 samples.

Results

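Megf6, Megf9, Megf10 and Megf11 code for proteins with multiple epidermal growth factor (EGF)-like domains. They were measured by the 7 probes, of 41174 non-control probes on the array, whose gene name in the hypothalamus array files is 1 of these 4 symbols (of 28146 names in all): 2 probes for Megf6, 2 for Megf9, 1 for Megf10 and 2 for Megf11. The grouping was proposed because Megf6 had a lower signal in knockout mice, so the genotype differences below are a description. Counts of probes past the threshold are printed for this contrast only beside the share of all probes, and support nothing. The arrays compared adult male mice lacking the clock gene Period3 (Per3-/-) with wild-type (WT) littermates on a C57Bl/6J background. Both genotypes lived through 17 cycles of 3.5 h light and 3.5 h dark and were killed in the light part of the last cycle. RNA came from a hypothalamic block (8 WT and 8 Per3-/- mice) and from the whole eye (7 WT and 7 Per3-/- mice), with 1 single-colour array per mouse and tissue. The hypothalamic block was a piece cut around the optic chiasm and the eye was taken whole, so each array averaged over many cell types, and fewer cells of a type cannot be told apart from less RNA per cell. Within a tissue each array came from a separate mouse, and same-numbered eye and hypothalamus arrays were taken as 1 mouse.

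The EGF-like domain is a small extracellular module held together by disulfide bonds, and tandem copies are found in adhesion molecules, signalling receptors and receptors for dying cells. MEGF10 and MEGF11 are transmembrane relatives of the engulfment receptors Draper of flies and CED-1 of worms. MEGF10 is known from astrocytes, where it takes part in clearing synapses and cell debris, and from muscle satellite cells, and both proteins set the spacing of starburst amacrine and horizontal cells in the mouse retina. MEGF9 is a transmembrane protein with laminin-type EGF-like domains that was described in the nervous system. MEGF6 carries many EGF-like repeats, and its function is little characterised.

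Each probe is a 60-base oligonucleotide. The first 30 bases of those for Megf6, Megf9 and Megf11 are shown because the probes of 1 gene gave different signals, and each line follows the order in which the probes are described (5′ to 3′, positions on mouse assembly mm9).
Megf6 A_52_P449718: caactgtttacctggaaatgtagtccagac
Megf6 A_51_P128198: ttctgaggactgcctttgtgagcagtcaca
Megf9 A_52_P350012: tactttttcaaagacattgagaatcttcct
Megf9 A_52_P231170: caacctagagtcatatgctctttgacttac
Megf11 A_52_P668442: tacaagtcagacaaagaaaacacagatact
Megf11 A_51_P487178: ggcacaagaaatgcaaatgatacccagtgt

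Both Megf6 probes are assigned to the transcript NM_001162977 on the plus strand of chromosome 4. A_52_P449718 covers chr4:153648364-153648423 and starts at base 5409 of the transcript, and A_51_P128198 covers chr4:153633000-153633059 and starts at base 2266. The Megf9 probes are on the minus strand of the same chromosome, A_52_P350012 at chr4:70090195-70090254 and A_52_P231170 at chr4:70093124-70093183. The Megf11 probes lie on the plus strand of chromosome 9, A_52_P668442 at chr9:64556858-64556917 on NM_001134399 and A_51_P487178 at chr9:64548369-64548428 on NM_172522, so they are assigned to different transcripts. The Megf10 probe, A_51_P514070, is assigned to NM_001001979. Each of these spans is unbroken in the genome, as within 1 exon, and the files do not say whether it is coding or untranslated.

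Signals are given as log2 of the background-subtracted intensity minus the 75th percentile of the array, so 0 is the 75th percentile. That percentile lay between 1408 and 2207 intensity units on the hypothalamus arrays and between 1133 and 1644 on those of the eye, and from 68.0% to 80.7% of an array's probes exceeded background by the test of the scanner software (called well above background). The labelled tissues carried their markers. All 8 eye markers were higher in WT eye than in WT hypothalamus, and 7 of 8 hypothalamus markers were lower there, the exception being Six6, which is also a gene of the developing eye. The single Per3 probe exceeded background on all 30 arrays. Its signal in Per3-/- mice was -3.97 ± 0.21 (SD, n = 8) in the hypothalamus, against -3.46 ± 0.15 (SD, n = 8) for WT, and -3.58 ± 0.52 (SD, n = 7) in the eye, against -3.13 ± 0.39 (SD, n = 7) for WT. Whether that probe lies in the deleted part of the gene is not given in the sources used here. Of the members, 6 probes were well above background on all 30 arrays, and A_51_P128198 of Megf6 on none.

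Megf6 was the member that differed between the genotypes. At A_52_P449718 its hypothalamus signal lay between -1.91 and -1.69 in WT (median -1.76, n = 8) and between -3.06 and -2.27 in Per3-/- mice (median -2.49, n = 8). All 8 knockout mice lay below every WT mouse, with 0.36 between the highest knockout and the lowest WT signal. The means were -1.77 ± 0.08 (SD, n = 8) and -2.55 ± 0.27 (SD, n = 8), a difference of -0.79 (standard error 0.10, 95% interval -0.99 to -0.58), or a 1.73-fold lower signal. Groups that do not overlap in this direction were rare in the hypothalamus, at 0.0442% of the 27177 probes measured above background throughout (0.0609% of 27934 in the eye), and Megf6 was chosen for this contrast.

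In the eye, the same probe gave signals between -2.79 and -2.57 in WT (median -2.71, n = 7) and between -3.71 and -2.68 in Per3-/- mice (median -3.31, n = 7). The WT minimum exceeded 6 of 7 knockout values, and knockout mouse 5, at -2.68, lay within the WT range. The means were -2.70 ± 0.07 (SD, n = 7) and -3.27 ± 0.32 (SD, n = 7), a difference of -0.58 (standard error 0.12, 95% interval -0.84 to -0.31), or 1.49-fold. Normexp background correction brought the eye difference to -0.22, while the median difference over all probes was 0.18 under it.

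**Figure D1:**
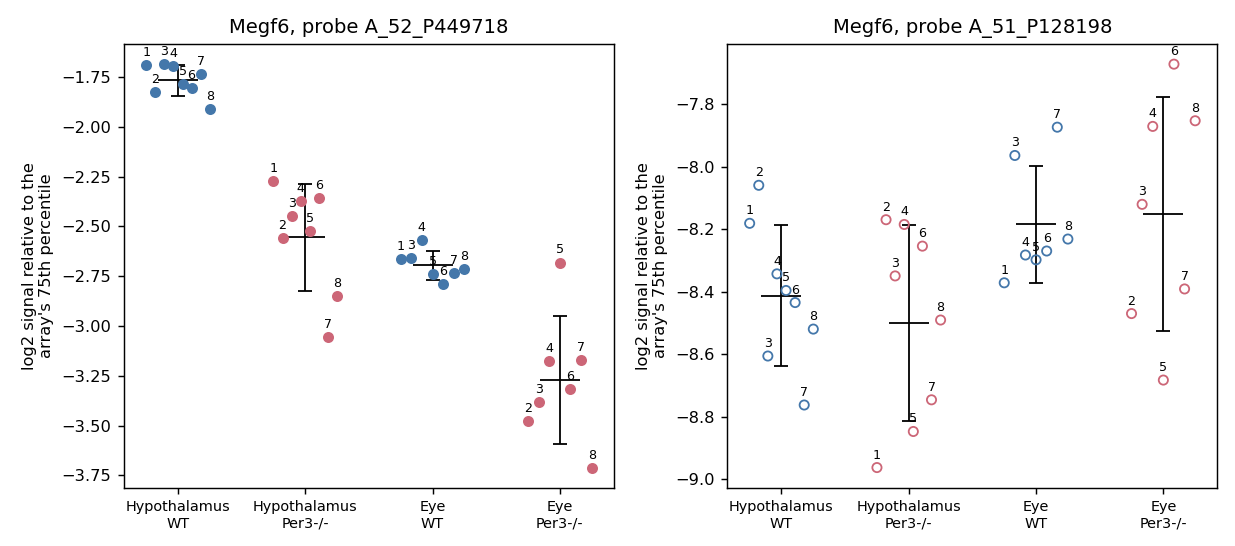
log2 signal of the Megf6 probes relative to the array's 75th percentile (vertical axis) for each mouse, in WT (blue) and Per3-/- (red) hypothalamus and eye. Digits are mouse numbers, filled points are well above background, open points are not, and bars give the mean and SD of 8 mice (hypothalamus) or 7 mice (eye) per genotype. At A_52_P449718 the knockout hypothalamus values sit below all WT values and eye mouse 5 of the knockout sits among WT mice, whereas all values of A_51_P128198 are open and overlap.

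With p-values from limma adjusted over all probes by Benjamini-Hochberg, 1 of the 7 member probes was at an adjusted p under 0.05 in the hypothalamus, A_52_P449718, where 0.0413% of all probes were (17 of 41174, with 0.034% lower and 0.00729% higher). In the eye 0 of the 7 were, beside 0.0194% of all probes (8 of 41174, all lower). Because the members were chosen on this contrast, nothing is read from these counts. The eye count depended on knockout mouse 5: without its array the difference was -0.68 and the count was 1, A_52_P449718. Same-numbered WT and knockout eyes varied together, but they share slides, and the number was not separated from the slide. With the replicate number as a block the eye count over all probes fell from 8 to 1. Megf6 was then at -0.54 and not called. That fit held only the 6 numbers with both genotypes, so the change is not that of the block alone. With the slide as a block the eye count was 9. In the hypothalamus the replicate block left 0 members called, and 5 of all probes, with Megf6 at -0.79.

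The lower Megf6 signal was present on every slide. Each tissue was run on 4 slides that held both genotypes. In the hypothalamus the knockout mean differed from the WT mean by -0.66 on slide 1, -0.72 on slide 2, -0.65 on slide 3 and -1.13 on slide 4, which held knockout mice 7 and 8, the lowest of the group. In the eye the differences were -0.81, -0.66, -0.23 and -0.72 on slides 1 to 4, the smallest on slide 3, which held knockout mouse 5. Slide 1 of the eye held 1 mouse per genotype and every other slide 2.

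Knockout mice also varied more among themselves. The SD of the Megf6 signal in knockout mice was 3.38 times that in WT mice for the hypothalamus. Over the 27177 probes measured above background throughout, the median ratio was 1.13, and 2.09% had a ratio as high. Megf11 A_51_P487178 (2.38) and Megf9 A_52_P231170 (2.13) also had raised ratios there, and the remaining well-measured member probes had 0.70 to 1.17. For the eye the Megf6 ratio was 4.41, beside a median ratio of 1.01, and 0.122% of 27934 probes had a ratio as high. With each array left out in turn, an alternative added after seeing the data, the hypothalamus ratio lay between 2.38 and 4.62 and the eye ratio between 2.81 and 6.43. The lowest hypothalamus ratio, 2.38, was that without knockout mouse 7, and 4.75% of probes had a ratio as high. The lowest eye ratio, 2.81, was that without knockout mouse 5, the knockout nearest to the WT mice, and 1.13% of probes had a ratio as high. Whether the same mice were low in both tissues was not resolved by 7 mice per genotype. Across the 7 knockout mice with both arrays, the eye and hypothalamus signals had Pearson r = 0.19 (exact permutation p = 0.65) and Spearman rho = 0.11 (exact permutation p = 0.84), and without the 2 mice farthest from the hypothalamus median r was -0.15. In the 7 WT mice r was 0.56 (exact permutation p = 0.21) and rho 0.68 (exact permutation p = 0.11), with r = 0.74 without the 2 farthest. These were 2 of 12 relations computed over the 6 well-measured probes, and no adjusted value was under 0.31.

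Markers of tissues that a hypothalamic block can take along varied between mice. The summed linear level of 5 anterior pituitary genes ran from 0.958 to 41.0 in WT and from 0.848 to 787.4 in Per3-/- hypothalamus, with 787.4 in knockout mouse 1, and that of 4 choroid plexus genes from 0.410 to 9.76 in WT and from 0.452 to 13.5 in Per3-/-. Pou1f1 and Kcnj13, the remaining genes of these lists, had no probe under that name. The Megf6 difference was -0.83 without knockout mouse 1, and with each of the 16 arrays left out in turn it lay between -0.83 and -0.72. Leaving out 1 array does not address tissue taken along in several mice. The part of such tissue in the Megf6 difference was not tested. Of the 9 marker lists, none had a gene called between genotypes in either tissue by limma. Over all probes 0.0413% were called in the hypothalamus and 0.0194% in the eye. At such shares a count of 0 does not show that the genotypes had the same tissue make-up. At an unadjusted p under 0.05 by limma there were 2 genes of the starburst amacrine list in the hypothalamus, Slc18a3 and Slc5a7. Both were lower in Per3-/- mice, with differences of -0.43 (standard error 0.14) and -0.44 (standard error 0.14). The other genes of that list differed by -0.14 (Chat), -0.12 (Isl1) and 0.05 (Sox2). There was also 1 of the endothelial list in the hypothalamus, and 0 genes in the eye. Over all 41174 probes there were 1163 in the hypothalamus and 740 in the eye. Starburst amacrine cells are retinal, so hypothalamus values of that list do not measure those cells.

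The other Megf6 probe, A_51_P128198, measured no Megf6 signal above background in either tissue. Its values lay between -8.96 and -8.06 in the hypothalamus and between -8.68 and -7.67 in the eye over both genotypes, and the groups overlapped. The genotype differences of -0.09 (95% interval -0.37 to 0.19) in the hypothalamus and 0.03 (95% interval -0.30 to 0.36) in the eye compare background signals, so the lower Megf6 signal rests on 1 probe.

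Megf9 did not separate the genotypes at either probe. The hypothalamus signal at A_52_P350012 ran from 2.80 to 3.01 in WT (median 2.92, n = 8) and from 2.81 to 3.03 in Per3-/- mice (median 2.93, n = 8), and the eye signal from 1.53 to 1.97 (median 1.71, n = 7) and from 1.42 to 1.86 (median 1.69, n = 7). The differences were 0.01 (95% interval -0.08 to 0.10) and -0.02 (95% interval -0.20 to 0.16). At A_52_P231170 the differences were -0.07 (95% interval -0.20 to 0.07) in the hypothalamus and -0.04 (95% interval -0.38 to 0.30) in the eye, and the knockout SD in the hypothalamus, 0.16 against 0.07 in WT, was 2.13 times as large. The eye signals at this probe ran from -1.61 to -0.53 in WT (n = 7) and from -1.64 to -0.78 in Per3-/- mice (n = 7), with nearly complete overlap.

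Megf10, the engulfment receptor of astrocytes, had a hypothalamus signal between -0.15 and 0.21 in WT (median 0.05, n = 8) and between -0.16 and 0.16 in Per3-/- mice (median -0.01, n = 8). The ranges overlapped almost completely, and the difference was -0.05 (95% interval -0.19 to 0.08). The eye signals ran from -2.23 to -1.69 in WT (median -1.96, n = 7) and from -2.33 to -1.74 in Per3-/- mice (median -1.87, n = 7), a difference of 0.01 (95% interval -0.22 to 0.23).

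Megf11, the partner of Megf10 in retinal cell spacing, overlapped between genotypes at both probes. Its A_52_P668442 signals lay between -1.59 and -1.03 in hypothalamus and between -1.53 and -0.92 in eye over both genotypes. The differences at this probe were -0.03 (95% interval -0.22 to 0.15) in the hypothalamus and -0.07 (95% interval -0.30 to 0.15) in the eye. For A_51_P487178 they were -0.13 (95% interval -0.28 to 0.03) and 0.05 (95% interval -0.31 to 0.41). At A_51_P487178, 4 of 8 knockout hypothalami were under the WT minimum and 1 was over the WT maximum.

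**Figure D2:**
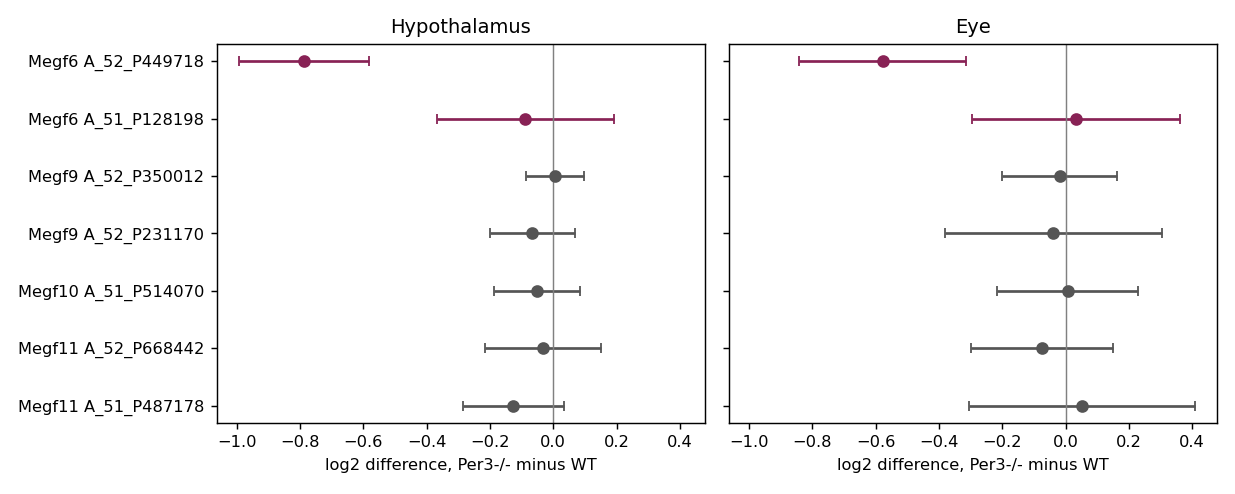
Difference in log2 signal, Per3-/- minus WT (horizontal axis), for the 7 member probes in hypothalamus and eye, with the 95% interval of the limma fit as bars (8 mice per genotype in the hypothalamus, 7 in the eye). Megf6 A_52_P449718 lies lowest, with the hypothalamus at -0.79 and the eye at -0.58, and the other probes lie between -0.13 and 0.05.

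The genes around Megf6 were read for the same contrast. Megf6 lies 3.27 Mb from the Per3 probe on chromosome 4, by the A_52_P449718 position, and Megf9 80.3 Mb. Within 0.5 Mb of the Megf6 probes there were 20 further probes of 16 genes. Of these 1 was called lower in each tissue, Prdm16, a transcriptional regulator 0.0419 Mb from A_52_P449718, and none was called higher. Prdm16 differed by -2.86 (standard error 0.13) in the hypothalamus and -4.14 (standard error 0.12) in the eye. The median difference of the 20 probes was 0.02 in the hypothalamus and -0.02 in the eye. Arhgef16, a guanine nucleotide exchange factor gene between Megf6 and Prdm16, differed by 0.02 (standard error 0.16) in the hypothalamus and 0.01 (standard error 0.10) in the eye, and Wrap73 and Tprgl on the other side of Megf6 differed by at most 0.08.

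**Figure D3:**
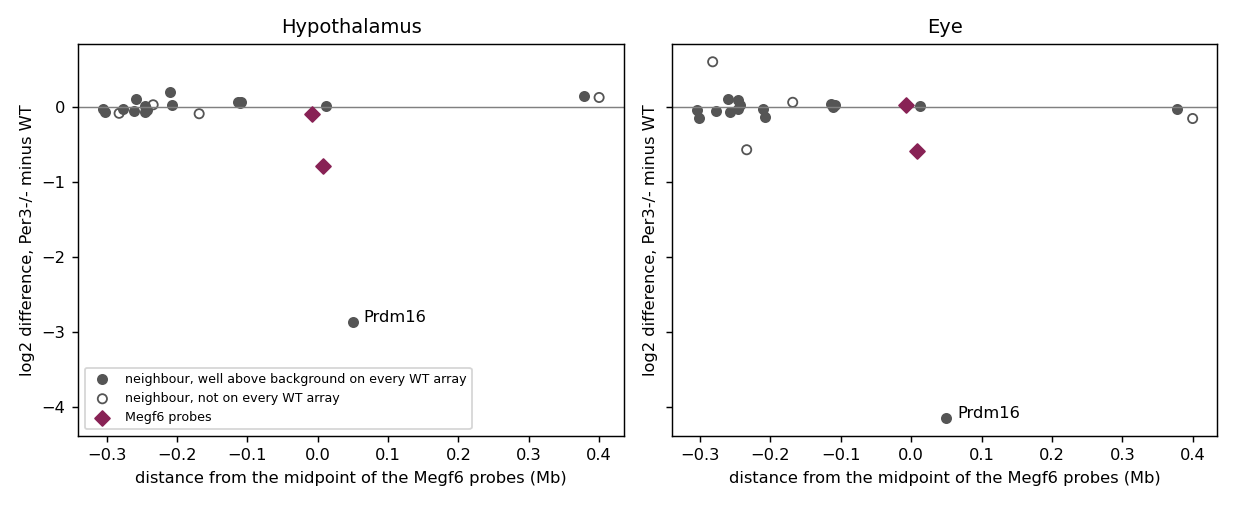
Difference in log2 signal, Per3-/- minus WT (vertical axis), of the probes within 0.5 Mb of Megf6 against their distance in Mb from the midpoint of the Megf6 probes, in hypothalamus (8 mice per genotype) and eye (7 per genotype). Prdm16 lies lowest, at -2.86 and -4.14, followed in the hypothalamus by Megf6 A_52_P449718 at -0.79, and the other probes well above background in WT lie near 0.

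The probes whose signal followed Megf6 A_52_P449718 most closely, after the genotype means were removed, differed between the tissues. Over the 16 hypothalamus arrays these were H2-DMa (Pearson r = 0.93), which helps load peptides onto MHC class II, Grk2 (r = 0.92), a kinase of G protein-coupled receptors, Ccdc103 (r = 0.92), Bcam (r = 0.91), a cell surface receptor for laminin, and Ulk4 (r = 0.90), out of 27150 probes. Over the 14 eye arrays they were Cyp2j6 (r = 0.91), Impact (r = 0.85), Dync2h1 (r = 0.84), Thsd1 (r = 0.83) and Fbxo38 (r = 0.82), out of 27883 probes. They are the highest of many and carry no p. Arrays of 1 slide share processing. Among the members, r with Megf6 was highest for A_52_P231170 of Megf9 in the hypothalamus (0.57) and for A_52_P350012 of Megf9 in the eye (0.59).

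The tissues were compared next, on all 30 arrays in 1 limma model with the mouse as a random block, which the choice of members did not use. Megf6, Megf9 and Megf10 were lower in the eye than in the hypothalamus, and Megf11 was not called. Tissue and slide cannot be told apart, since no slide held both. Most probes differed: 75.6% of all probes were at an adjusted p under 0.05 in WT (42.1% higher and 33.6% lower in the eye) and 77.8% in Per3-/- mice (44.4% or 18267 higher and 33.4% or 13758 lower), so the 4 member probes called in WT and 5 in Per3-/- mice are no more than that share. The median difference over all probes was 0.16 in WT and 0.23 in Per3-/- mice. The processing changed the split in both genotypes. In Per3-/- mice it was 14410 higher and 16429 lower with quantile normalization, and the median was -0.06. With normexp background correction it was 23827 higher and 10303 lower there, and the median was 0.59. In WT the split was 17327 higher and 13817 lower before these changes. It was 14421 higher and 16739 lower with quantile normalization (median -0.07), and 13167 higher and 11100 lower with normexp (median 0.13).

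Megf10 had the largest tissue difference of the members. Its eye signal was -1.95 ± 0.16 (SD, n = 7) and its hypothalamus signal 0.04 ± 0.14 (SD, n = 8) in WT, a difference of -1.99 (standard error 0.08, adjusted p = 2.2e-19 by limma), or 3.98-fold. In Per3-/- mice the difference was -1.93 (adjusted p = 4.8e-19 by limma). No eye overlapped any hypothalamus, with 1.54 between the groups in WT, and the signal was lower in the eye in all 7 WT and all 7 knockout mice that had both arrays. Groups that do not overlap in this direction made up 37.3% of well-measured probes in WT and 36.2% in Per3-/- mice.

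Markers of astrocytes, horizontal cells and starburst amacrine cells, and of skeletal muscle, were read beside these values. Of 6 astrocyte genes, 5 were lower and 1 higher in WT eye, and their summed linear level ran from 80.2 to 91.1 in WT hypothalamus and from 13.05 to 18.5 in WT eye. All 4 horizontal cell genes were lower in WT eye (sums 20.4 to 25.2 in hypothalamus against 4.85 to 6.11). Of 5 starburst amacrine genes 3 were higher and 2 lower (sums 2.11 to 2.45 in hypothalamus against 3.16 to 3.87). Both cell types belong to the retina, so the hypothalamus levels of these genes do not stand for them. Neither list marks its cell type in this comparison. Of 7 skeletal muscle genes, the 6 of muscle fibres were higher in WT eye, and Pax7, the marker of satellite cells, was not called, at 0.85 (standard error 0.42, adjusted p = 0.069 by limma). The sums of the 7 ran from 0.765 to 0.925 in hypothalamus and from 184.9 to 423.5 in eye. Of 4 endothelial genes 2 were higher and 1 lower. The part of these cells in the differences of Megf6, Megf9 and Megf10 was not tested.

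Megf9 was lower in the eye at both probes. At A_52_P350012 the WT difference was -1.20 (standard error 0.06, adjusted p = 6.1e-17 by limma) and at A_52_P231170 it was -1.55 (standard error 0.11, adjusted p = 2.8e-13 by limma). In Per3-/- mice they were -1.23 and -1.52. All 7 WT and 7 knockout eyes lay below every hypothalamus of their genotype at both probes, as at 37.3% (WT) and 36.2% (Per3-/-) of well-measured probes. Mice deviated together at the 2 probes in the eye (Pearson r = 0.81 over 14 arrays, genotype means removed) and not in the hypothalamus (r = 0.05 over 16 arrays), given as a description.

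Megf6 at A_52_P449718 differed between eye and hypothalamus by -0.93 in WT (standard error 0.11, adjusted p = 4.8e-09 by limma), or 1.90-fold, and by -0.72 in Per3-/- mice (adjusted p = 5.9e-07 by limma). All 7 WT eyes lay below every WT hypothalamus, as at 37.3% of well-measured probes. In Per3-/- mice 6 of 7 eyes lay below every hypothalamus. In descending order the group means were WT hypothalamus, Per3-/- hypothalamus, WT eye and Per3-/- eye, and the Per3-/- hypothalamus and WT eye ranges overlapped. The knockout tissue difference of -0.72 moved to -0.31 (adjusted p = 0.046 by limma) with normexp background correction and to -1.13 with quantile normalization.

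For Megf11, A_52_P668442 differed between the tissues by 0.05 in WT (95% interval -0.14 to 0.24, adjusted p = 0.64 by limma) and 0.01 in Per3-/- mice (95% interval -0.18 to 0.20). The WT difference at A_51_P487178 was -0.20 (95% interval -0.45 to 0.06, adjusted p = 0.15 by limma), with -0.02 in Per3-/- mice (95% interval -0.27 to 0.24). Quantile normalization lowered A_51_P487178 to -0.47 in WT and -0.31 in Per3-/- mice, both past the threshold. The fifth call in Per3-/- mice was the background-level Megf6 probe, at 0.34 (adjusted p = 0.027 by limma), which turned to -0.03 with quantile normalization and compares background signals.

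**Figure D4:**
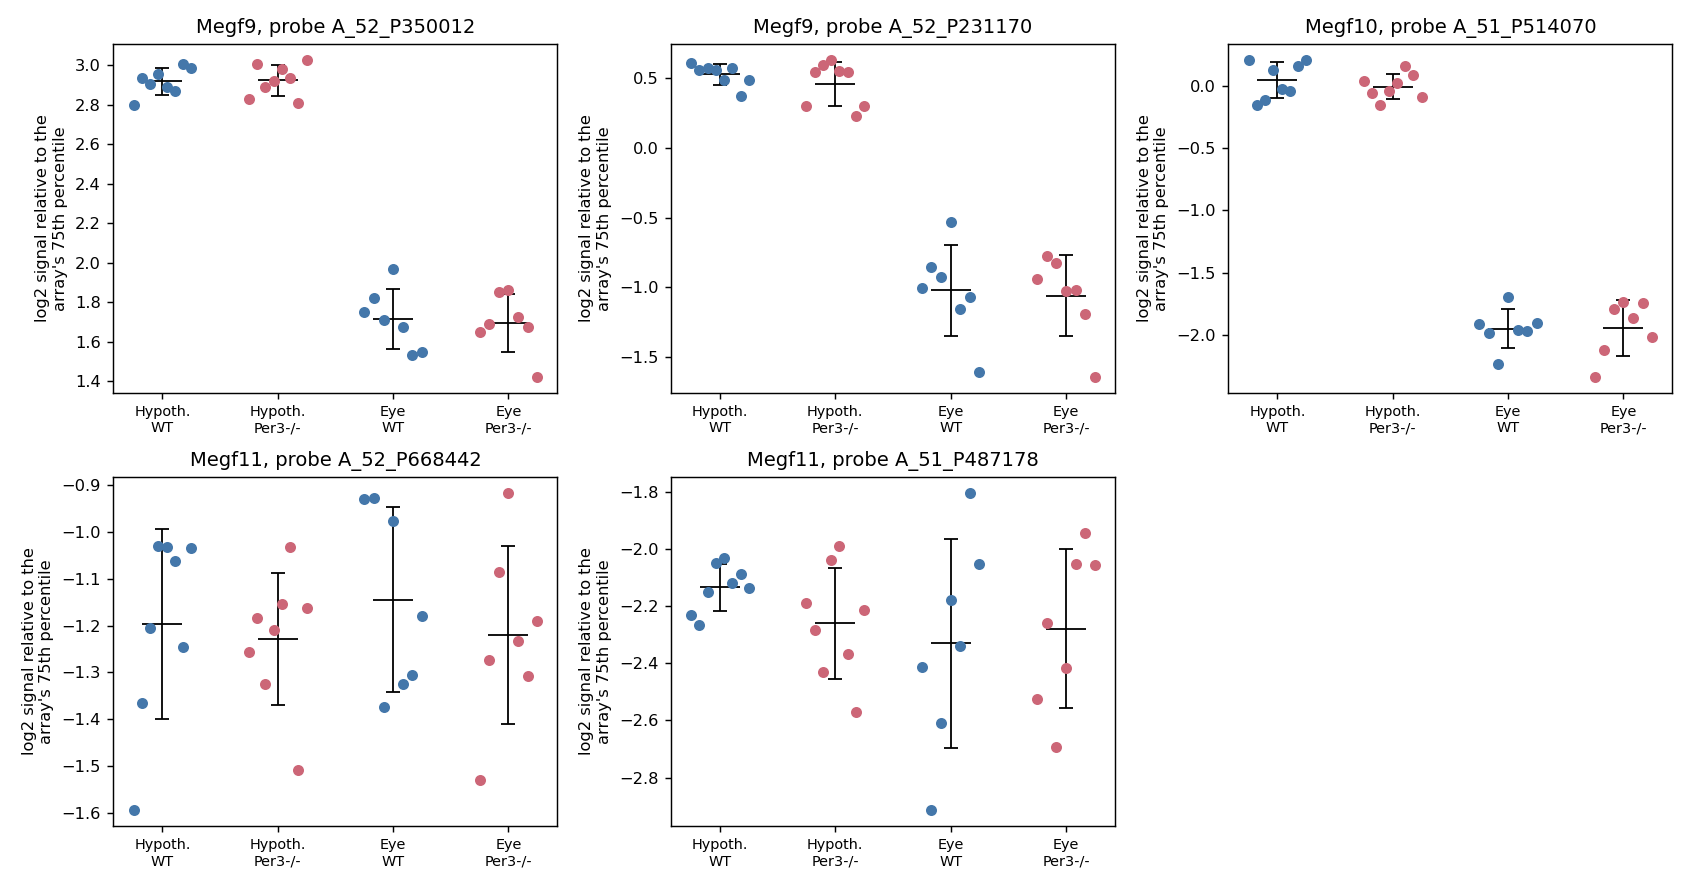
log2 signal relative to the array's 75th percentile (vertical axis) of the Megf9, Megf10 and Megf11 probes in each mouse, WT in blue and Per3-/- in red, with bars for the mean and SD of 8 (hypothalamus) or 7 (eye) mice per genotype. Both Megf9 probes and Megf10 lie lower in the eye, Megf11 overlaps between tissues, and WT and Per3-/- overlap at every probe.

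The genotype effect was compared between the tissues in the same model. The interaction at Megf6 A_52_P449718 was 0.21 (standard error 0.15, 95% interval -0.10 to 0.52) and not called. Over the other members it lay between -0.04 and 0.18, and every 95% interval included 0. None of the 7 (0) was called, beside 0.00486% of all probes (2 of 41174). An interval this wide does not show that Megf6 differed by the same amount in both tissues.

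Genes related by name or by role were read with 1 probe each. Over all probes, 0.0413% were called between genotypes in the hypothalamus and 0.0194% in the eye by limma. At an unadjusted p under 0.05 there were 1163 and 740 of 41174 probes. Beside these shares, 0 called in such short lists is no result about their genes. Of 8 other genes that once carried MEGF numbers, 0 were called between genotypes in either tissue by limma (1 in the hypothalamus and 0 in the eye at an unadjusted p under 0.05, and by the methods' t-test 0 called, with 2 and 0 unadjusted). Their median difference was -0.05 for the hypothalamus, beside -0.01 over all probes, and 0.00 for the eye, beside 0.00. Between the tissues, 2 were higher and 4 lower in WT eye. Celsr2, an atypical cadherin of planar cell polarity, differed by -2.23 (standard error 0.10), and Lrp4, a receptor needed for neuromuscular synapses, by -1.48 (standard error 0.09). Slit3, a guidance ligand, was higher by 0.32 (standard error 0.08) and Pear1, a platelet receptor, by 0.25 (standard error 0.09), but quantile normalization brought Slit3 to 0.11 and Pear1 to -0.04, neither called.

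The 4 scavenger receptors with EGF repeats were all higher in WT eye, opposite in direction to Megf6, Megf9 and Megf10. Scarf2 was higher by 1.72 (standard error 0.09) and Scarf1 by 1.64 (standard error 0.08), the median was 1.12, and 3 of 4 were still called with quantile normalization. Between genotypes 0 of 4 were called in either tissue by limma, beside 0.0413% (hypothalamus) and 0.0194% (eye) of all probes. There were 0 at an unadjusted p under 0.05, and 0 were called by the methods' t-test.

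Of 19 engulfment genes, 7 were higher and 11 lower in WT eye (median -0.21), so the list did not share 1 direction. Itgb5, an integrin subunit that binds photoreceptor debris at the pigment epithelium, was higher by 2.28 (standard error 0.05), and Gulp1, an adaptor of engulfment receptors, by 1.44 (standard error 0.05). Lrp1, a large endocytic receptor, was lower (difference -1.51, standard error 0.07), as was Elmo1, which acts with Dock1 on Rac (difference -1.20, standard error 0.14). Between genotypes 0 of 19 were called in either tissue by limma, beside 0.0413% (hypothalamus) and 0.0194% (eye) of all probes. There was 1 at an unadjusted p under 0.05 in each tissue, and 0 were called by the methods' t-test.

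Of 14 Notch signalling genes, whose ligands and receptors also carry EGF repeats, 6 were higher and 5 lower in WT eye (median -0.00). Jag1 was higher by 2.88 (standard error 0.07) and Dll4 by 2.60 (standard error 0.25), both Notch ligands, with Dll4 at 1.63 under normexp. Dlk1, a non-canonical ligand, was 25.1-fold lower (difference -4.65, standard error 0.22), and Hes5, a target of the pathway, 6.43-fold lower (difference -2.69, standard error 0.16). Between genotypes 0 of 14 were called in either tissue by limma, beside 0.0413% (hypothalamus) and 0.0194% (eye) of all probes. There was 1 at an unadjusted p under 0.05 in each tissue, and 0 were called by the methods' t-test.

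**Figure D5:**
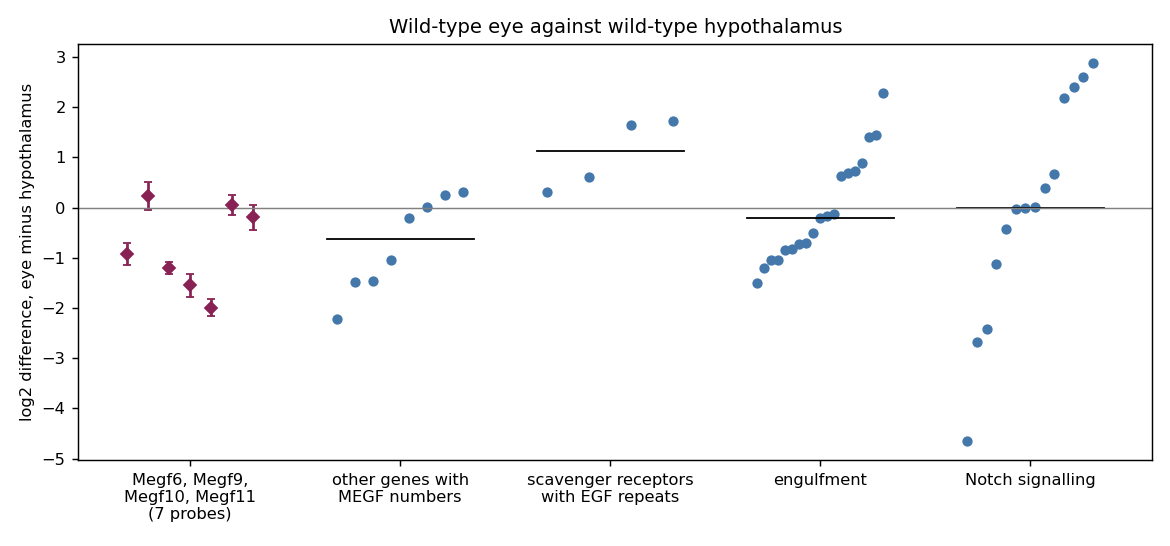
Difference in log2 signal, WT eye minus WT hypothalamus (vertical axis), for the 7 member probes (diamonds with 95% intervals, in the order Megf6, Megf9, Megf10, Megf11, 7 eyes and 8 hypothalami) and for the related lists with 1 point per gene and a line at the median. Megf10 is lowest of the members at -1.99, the scavenger receptors lie above 0, and the engulfment and Notch lists run both ways.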

How the data were processed

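Intensities are those of Agilent 4x44K mouse arrays (Cy3), extracted by the authors with Feature Extraction 10.7.1.1 per the file headers, and deposited background-subtracted and detrended but not normalized between arrays. The well-above-background marks (other) come from the same software. A further deposited table holds log2 values scaled by the 75th percentile and centred on each probe's median over the arrays of a tissue (r of 0.9999 or more with those used here). Here log2 intensity minus the array's 75th percentile was tested with limma 3.58.1 (R 4.3.3), two-sided, with Benjamini-Hochberg adjustment over 41174 probes. Genotype was fitted within each tissue. Tissue was fitted over 30 arrays, with mice as random blocks (correlation 0.0591). Same-numbered eye and hypothalamus arrays were taken as 1 mouse. Spots marked as outliers were left out, at most 91 per array. Named were every member probe, neighbours within 0.5 Mb, the 5 most alike probes and, per list, genes called for genotype and the 2 largest WT tissue differences in each direction, read by the probe of highest mean signal. Members and lists were chosen with earlier results of these data known. Same-numbered WT and knockout eyes, which share slides, correlated between 0.11 and 0.63 (6 pairs), so numbers were taken to pair the eyes. Same-numbered hypothalami, which also share slides, correlated between -0.03 and 0.32 (8 pairs), so their numbers were not. The ranges overlap, and the number was not separated from the slide. The fits were tested on simulated data. Calculations used Python 3.11.15. Eyes of WT mouse 2 and knockout mouse 1 were not analysed here. Alternatives were quantile normalization, normexp (offset 50), a filter on dim probes, slide and replicate blocks, the methods' t-test, the log2 table and leaving out each mouse. Normexp took the median spot signal for the eye and the mean spot signal for the hypothalamus. Its tissue differences therefore also compare unlike measures. The number of arrays limits the precision.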

Additional observations from a re-analysis of the deposited data

How the results depend on the processing

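The count of member probes called between genotypes in the hypothalamus was 1 under 6 of 7 other settings and 0 with the replicate block, where the Megf6 difference was unchanged at -0.79 and the count over all probes fell from 17 to 5. With each array left out in turn it stayed at 1. In the eye the leave-one-out range was 0 to 1, and the count was 0 under all 7 other settings, and the count over all probes, 8, ran from 1 (replicate block) to 9. With normexp these counts were 10 in the hypothalamus and 4 in the eye. Calls between tissues, 4 in WT and 5 in Per3-/- mice, ran from 4 to 5 in WT and from 4 to 5 in Per3-/- mice without single mice. The interaction was called for 0 members throughout, with 0 of all probes under normexp and 1 with quantile normalization.

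Tissue differences changed sign at the background-level Megf6 probe, from 0.23 in WT and 0.34 in Per3-/- mice, the latter past the threshold, and at the Megf11 probes, neither past it. Quantile normalization gave -0.0327 in WT and -0.0335 in Per3-/- mice at Megf6 A_51_P128198, and -0.11 in WT and -0.15 in Per3-/- mice at Megf11 A_52_P668442. Normexp gave 0.23 in Per3-/- mice at Megf11 A_51_P487178. Without single mice, Megf11 A_52_P668442 ran from -0.0439 to 0.11 in WT and from -0.0303 to 0.0675 in Per3-/- mice, and A_51_P487178 from -0.12 to 0.0838 in Per3-/- mice. The cause was not tested. Megf6 rests on 1 probe, and signals below background have no order.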
